A study of Mus musculus with 4 samples.

Results

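The genes described here make, load, use or sort microRNAs, and 30 of the 24473 genes with FPKM values were taken by their symbols. FPKM are fragment counts scaled to gene length and sequencing depth, so levels can be set side by side between genes. The 4 mRNA libraries came from BV-2, a mouse microglial cell line made immortal, and all cells had received LPS (lipopolysaccharide from bacterial cell walls) at 100 ng/mL for 24 h. SIX2 knockdown cells gave 2 libraries (titled sh s1 and sh s2), and control cells labelled WT gave 2 (titled sh c1 and sh c2). SIX2 is a homeobox transcription factor. Both groups carry "sh" in their titles, and whether the control cells also held a hairpin vector is not stated. Six2 itself had a count of 0 in every library, controls included, so the knockdown could not be seen in its mRNA.

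MicroRNAs are short RNAs that pair with messenger RNAs through their first bases (the seed) and lower their stability and translation. A hairpin is cut from the primary transcript in the nucleus by DROSHA with DGCR8, carried to the cytoplasm by exportin 5, cut again by DICER1 with TARBP2 or PRKRA, and loaded into an Argonaute protein. The Argonaute binds a GW182 protein (TNRC6A, TNRC6B or TNRC6C), which calls in the enzymes that shorten the poly(A) tail, remove the cap and degrade the message. Short hairpin RNAs used for knockdown enter the same route at exportin 5. Some RNA-binding proteins have been tied to the packing of chosen microRNAs into extracellular vesicles, the step that the series title raises for miR-3470b.

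The sequence of that microRNA is shown first, since short motifs are the feature by which sorting proteins are known to bind microRNAs. Binding to miR-3470b was not measured here. Mature mmu-miR-3470b lies at chr16:44013885-44013905 on the plus strand (RefSeq, GRCm38.p6), inside the protein-coding gene Gramd1c, which runs on the minus strand. Its seed, bases 2 to 8, is in capitals in the first line. Capitals in the second mark GGCU, a motif known from SYNCRIP-bound vesicle microRNAs, beginning at base 16.
miR-3470b, seed: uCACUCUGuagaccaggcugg
miR-3470b, motif: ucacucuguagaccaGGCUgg
Read along the microRNA strand alone, GGCU was in 223 of 1679 mature mouse microRNAs (13.3%), miR-3470b among them. GGAG, a motif known from HNRNPA2B1-bound vesicle microRNAs, was in 238 (14.2%) and is not in these letters of miR-3470b. No other mature mouse microRNA in the table had the same seed. The libraries were made from poly(A) RNA, which leaves mature microRNAs unmeasured. The hairpin's own gene row, Mir3470b, had 0 counts in all 4 libraries, which allows up to 12 counts in each (3 fragments at about 4 counts a fragment).

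A group of 6 of the 30 genes also hold a mature microRNA on their own strand, so that 1 transcript can feed the pathway and encode part of it. The arms below, 1 for each gene, show seeds in capitals (RefSeq, GRCm38.p6). Dgcr8 also holds miR-3618, in a UTR on the same strand, which is not shown. By the GENCODE M21 annotation, miR-1306 lies in a coding exon of Dgcr8 (chr16:18284248-18284268, minus strand) and miR-5113 in a UTR of Tnrc6b (chr15:80940049-80940071, plus strand). miR-7a lies in an intron of Hnrnpk (chr13:58392841-58392863, minus strand), miR-693 in an intron of Xpo5 (chr17:46231551-46231571, plus strand), miR-7073 in an intron of Cnot1 (chr8:95753188-95753209, minus strand), and miR-3064 in an exon of a Ddx5 transcript (chr11:106782736-106782757, minus strand).
miR-1306-3p in Dgcr8: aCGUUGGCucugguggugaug
miR-5113 in Tnrc6b: aCAGAGGAggagagagauccugu
miR-7a-5p in Hnrnpk: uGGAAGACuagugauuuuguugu
miR-693-5p in Xpo5: cAGCCACAuccgaaaguuuuc
miR-7073-5p in Cnot1: uGGGGGAAuugaaagacuauga
miR-3064-5p in Ddx5: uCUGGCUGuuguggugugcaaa
These 6 seeds differ from each other and from that of miR-3470b. The levels given below for the 6 host genes are those of the whole gene, and the microRNAs cut from them were not measured.

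The libraries held 74712717 and 64265336 counts in knockdown cells and 75672836 and 60956299 counts in control cells. Of 12 microglia and macrophage markers, 10 were above 1 FPKM in every library. Cx3cr1 and P2ry12, which mark microglia in the brain, were near 0 (up to 0.165 and 0.108 FPKM). Of 17 neuron, astrocyte, oligodendrocyte and fibroblast markers, only Syn1 was above 1 FPKM in every library. Summed over its list, the microglia and macrophage level was 1065 and 1044 FPKM in knockdown cells, against 1123 and 1167 FPKM in control cells. Cd68 and Tyrobp made up most of that sum, and some other markers differed by more. Mean FPKM in knockdown cells differed from control by -52.8% for Aif1, -45.7% for Tmem119, -36.8% for Adgre1, -29.8% for Csf1r and 35.9% for Trem2. Each of these had no overlap between groups (47.4% of all genes tested had none). The difference was -4.86% for Cd68 and -3.53% for Tyrobp, also with no overlap. Itgam (-7.64%), Ptprc (1.18%), Spi1 (-4.11%) and the scarce Cx3cr1 overlapped, and the scarce P2ry12 did not. Lists of other cell types summed to 5.52 and 4.33 FPKM (neuron), 1.21 and 0.0444 FPKM (oligodendrocyte), 0.183 and 0.106 FPKM (astrocyte) and 0.0301 and 0.00872 FPKM (fibroblast) in knockdown cells. In control cells the sums were 4.42 and 4.53 FPKM (neuron), 2.03 and 1.88 FPKM (oligodendrocyte), 0.432 and 0.342 FPKM (astrocyte) and 0.0707 and 0.0621 FPKM (fibroblast). The part of these differences in the results was not tested, and in bulk RNA fewer cells of a type cannot be told apart from less RNA per cell. Nothing in the labels says that replicates were separate cultures, so p-values measure the spread between these libraries alone, which may be technical.

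None of the 30 genes passed an adjusted p of 0.05 between knockdown and control cells. The test was edgeR's quasi-likelihood test with Benjamini-Hochberg adjustment over 15733 genes, of which 150 (0.953%) passed, 64 higher in knockdown cells (0.407%) and 86 lower (0.547%). That count was 62 without control replicate 1, 41 without control replicate 2, 112 without knockdown replicate 1 and 42 without knockdown replicate 2. All 30 passed the filter on low counts, and the lowest adjusted p among them was 0.144 (Ago4). At an unadjusted p of 0.05, 6 were higher in knockdown cells (7.52% of all genes were) and 1 was lower (6.7% of all genes). Among the 8663 genes whose mean CPM (counts scaled to library size) reached that of the lowest of the 30, 11.2% were higher and 7.08% lower at that p. The higher ones were Tarbp2, Tnrc6b, Xpo5, Tnrc6c, Srsf3 and Cnot1, and the lower one was Ago4. By DESeq2, 1 of the 30 passed an adjusted p of 0.05, Ago4 (adjusted p = 0.0418), against 4.29% of all genes with a DESeq2 value. Fitted log2 fold changes, knockdown minus control, were above 0 for 22 of the 30 (48.9% of all genes), with a median of 0.09 against -0.01 over all genes. Among those 8663 genes, 55.1% were above 0, with a median of 0.03.

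**Figure D1:**
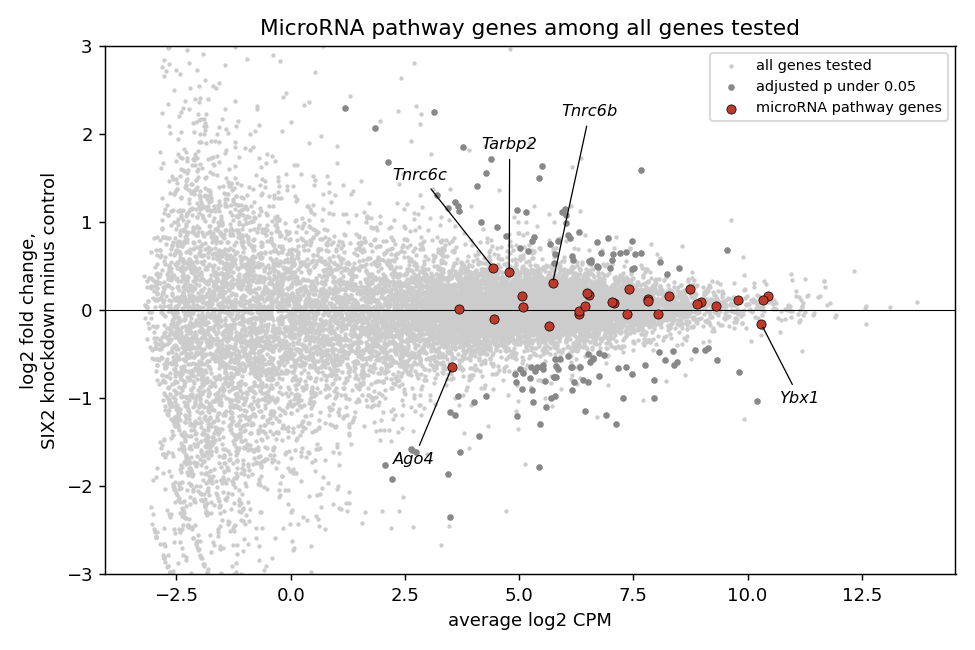
Log2 fold change (SIX2 knockdown minus control) against average log2 CPM for 15733 genes, with the 30 microRNA pathway genes in red and genes with an adjusted p under 0.05 in dark grey; 274 genes lie beyond the range of -3 to 3. The pathway genes sit in the better expressed part of the cloud, between -0.65 (Ago4) and 0.48 (Tnrc6c).

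In FPKM, 12 of the 30 genes were higher in both knockdown libraries than in either control library (20.0% of all genes tested were). A further 6 were lower (27.5% of all genes) and 12 overlapped, so that 18 did not overlap (47.4% of all genes tested did not). Some of these calls turned with the scaling. In CPM as scaled for the test, Drosha, Ago2 and Ddx17 were higher in both knockdown libraries. Dicer1 and Ago3 overlapped on that scale, and the rest kept their call. Overlap between groups is given in FPKM below unless CPM is named. Of the 30, 12 overlap a gene of their own strand and 11 a gene of the opposite strand, and counts there may be split or shared. Levels per length spanned a wide range that both groups shared. The highest were 3 RNA-binding proteins, with Ybx1 first at a mean of 449 FPKM over the 4 libraries, Hnrnpa1 at 370 FPKM and Hnrnpa2b1 at 190 FPKM. The lowest were Ago3 at 1.18 FPKM, Ago4 at 1.49 FPKM, Tnrc6c at 1.50 FPKM and Xrn1 at 1.65 FPKM. Over the libraries, the ranges of the first 3 of these overlapped, and that of Xrn1 overlapped those of Ago4 and Tnrc6c. Replicates lay close together: the higher library of a pair was a median of 1.04 times the lower in knockdown cells and 1.05 times in control cells. The widest pairs were Prkra in knockdown cells (1.42 times) and Tnrc6c in control cells (1.33 times).

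**Figure D2:**
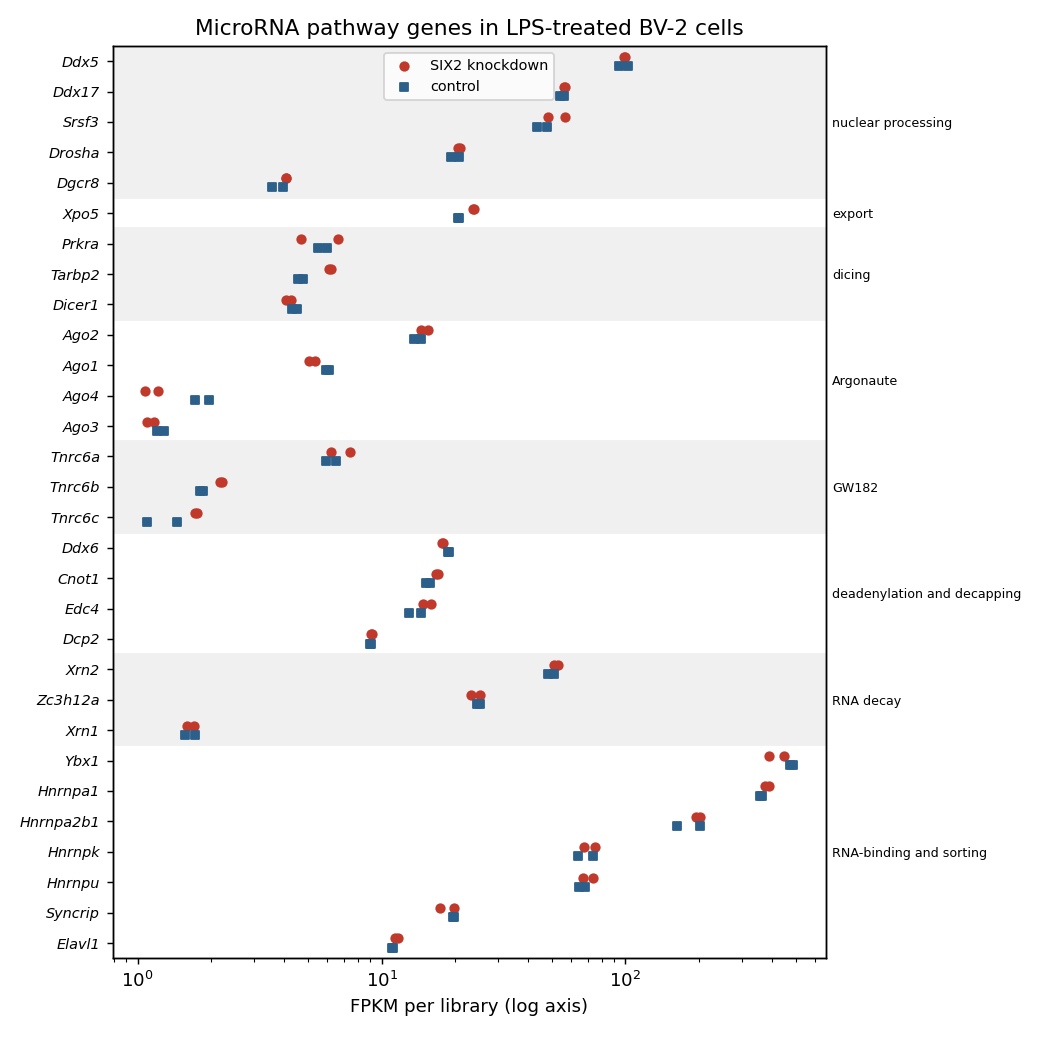
FPKM of each of the 30 genes on a log axis, 1 point per library, knockdown as red circles above control as blue squares, grouped by role. The points of a gene nearly coincide compared with the range from 1.07 FPKM (Ago4, knockdown) to 487 FPKM (Ybx1, control), and Ago4 shows the widest gap between groups.

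The nuclear cutting step came first in the pathway. Drosha, the nuclear RNase III, had 20.5 and 20.9 FPKM in knockdown cells, against 20.7 and 19.4 FPKM in control cells. Its partner Dgcr8, which grips the hairpin stem, was less abundant per length, with 4.07 and 4.07 FPKM in knockdown cells, against 3.95 and 3.54 FPKM in control cells. The groups overlapped for Drosha and did not for Dgcr8, whose log2 fold change was 0.16 ± 0.11 (SE, adjusted p = 0.599 by edgeR). That value was 0.075 without control replicate 2 and 0.24 without control replicate 1. On the opposite strand Dgcr8 overlaps Trmt2a, which had 7907 and 6692 counts in knockdown cells and 6833 and 5424 counts in control cells. Whether reads were shared between them was not tested. The helicases Ddx5 and Ddx17, which join the DROSHA complex for part of the microRNAs, overlapped between groups as well. Ddx5 had 99.9 and 98.5 FPKM in knockdown cells and 102 and 94.2 FPKM in control cells. Ddx17 had 56.3 and 56.1 FPKM in knockdown cells and 53.8 and 56.2 FPKM in control cells. Srsf3, a splicing factor that also reads a motif beside primary hairpins, had 48.2 and 56.3 FPKM in knockdown cells, against 43.2 and 47.5 FPKM in control cells. Its groups did not touch, yet the knockdown libraries differed from each other by more than the gap between groups (log2 fold change 0.24 ± 0.09, SE, adjusted p = 0.323 by edgeR). The fitted value was 0.12 without knockdown replicate 2 and 0.35 without knockdown replicate 1.

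Of the 4 genes of export and dicing, 2 were higher in both knockdown libraries than in either control library (20.0% of all genes tested were) and 1 was lower (27.5% of all genes), all short of the adjusted threshold. Xpo5, which carries hairpins out of the nucleus, had 23.9 and 23.7 FPKM in knockdown cells, against 20.8 and 20.5 FPKM in control cells. Tarbp2, the double-stranded RNA-binding partner of DICER1, had 6.19 and 6.09 FPKM in knockdown cells, against 4.77 and 4.56 FPKM in control cells. Replicates of both genes lay closer to each other than the groups did. Their log2 fold changes were 0.24 ± 0.07 for Xpo5 (SE, adjusted p = 0.196) and 0.43 ± 0.11 for Tarbp2 (SE, adjusted p = 0.156 by edgeR), and for Tarbp2 the 95% interval ran from 1.13-fold to 1.61-fold. Dicer1, the cytoplasmic RNase III, had 4.26 and 4.07 FPKM in knockdown cells, against 4.31 and 4.49 FPKM in control cells, with a log2 fold change of -0.04 ± 0.08 (SE). Prkra, the other DICER1 partner, had 4.66 and 6.62 FPKM in knockdown cells and 5.50 and 5.99 FPKM in control cells. The knockdown libraries of Prkra enclosed both control libraries, and the sign of its fitted change (0.0076 here) turned with the scaling. Tarbp2 lay above Prkra in knockdown replicate 1 and below it in the other 3 libraries.

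The Argonautes hold the mature microRNA and find its targets. Ago2, the member able to cut a well-paired target, made up 68.0% and 65.5% of the family's summed FPKM in knockdown cells, against 62.1% and 59.6% in control cells. Ago2 itself had 15.5 and 14.5 FPKM in knockdown cells and 14.6 and 13.6 FPKM in control cells, and the groups overlapped. The other 3, Ago3, Ago1 and Ago4, are neighbours on mouse chromosome 4, minus strand (chr4:126331704-126429556, chr4:126435012-126468583 and chr4:126489541-126533472), with 5455 and 20957 bases between them. In FPKM all 3 were lower in both knockdown libraries than in either control library (27.5% of all genes tested were). In CPM as scaled for the test, Ago1 and Ago4 stayed lower, while Ago3 overlapped between groups. On that scale Ago2 was higher in both knockdown libraries. Ago1 had 5.04 and 5.33 FPKM in knockdown cells, against 5.91 and 6.08 FPKM in control cells. Ago3 had 1.17 and 1.09 FPKM in knockdown cells, against 1.28 and 1.20 FPKM in control cells. Ago4 had 1.07 and 1.21 FPKM in knockdown cells, against 1.71 and 1.96 FPKM in control cells. The gap was small for Ago1 and Ago3 (log2 fold changes -0.18 ± 0.09 and -0.10 ± 0.12, SE) and widest for Ago4. Ago4 rested on 621 and 603 counts in knockdown cells and 1006 and 924 counts in control cells, with a log2 fold change of -0.65 ± 0.16 (SE, unadjusted p = 0.00491, adjusted p = 0.144 by edgeR) and a 95% interval from 0.490-fold to 0.828-fold. It stayed between -0.74 and -0.56 when any 1 library was left out, with adjusted p from 0.257 to 0.482, and was -0.41 with limma on log2(FPKM + 1), a scale that understates changes of low genes (adjusted p = 0.273). Ago4 overlaps the processed pseudogenes Gm12934 and Gm12935, and both had 0 counts in every library. The summed FPKM of the 4 Argonautes was 22.8 and 22.1 in knockdown cells and 23.5 and 22.9 in control cells.

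The GW182 genes encode the proteins that bridge the Argonaute to the silencing enzymes, and none of the 3 passed the adjusted threshold. Tnrc6a, the most abundant, had 7.43 and 6.22 FPKM in knockdown cells and 5.91 and 6.52 FPKM in control cells, and the groups overlapped. Tnrc6b had 2.23 and 2.17 FPKM in knockdown cells, against 1.80 and 1.85 FPKM in control cells. Tnrc6c had 1.75 and 1.72 FPKM in knockdown cells, against 1.09 and 1.45 FPKM in control cells. Tnrc6b and Tnrc6c were higher in both knockdown libraries than in either control library (20.0% of all genes tested were). Their log2 fold changes were 0.30 ± 0.08 for Tnrc6b (SE, adjusted p = 0.182 by edgeR) and 0.48 ± 0.16 for Tnrc6c (SE, adjusted p = 0.241 by edgeR). Control replicate 1 set much of the value for Tnrc6c, which was 0.30 without it and 0.69 without control replicate 2. On log2(FPKM + 1) the values were 0.18 for Tnrc6b and 0.27 for Tnrc6c. The summed FPKM of the 3 genes was 11.4 and 10.1 in knockdown cells, against 8.80 and 9.81 in control cells.

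**Figure D3:**
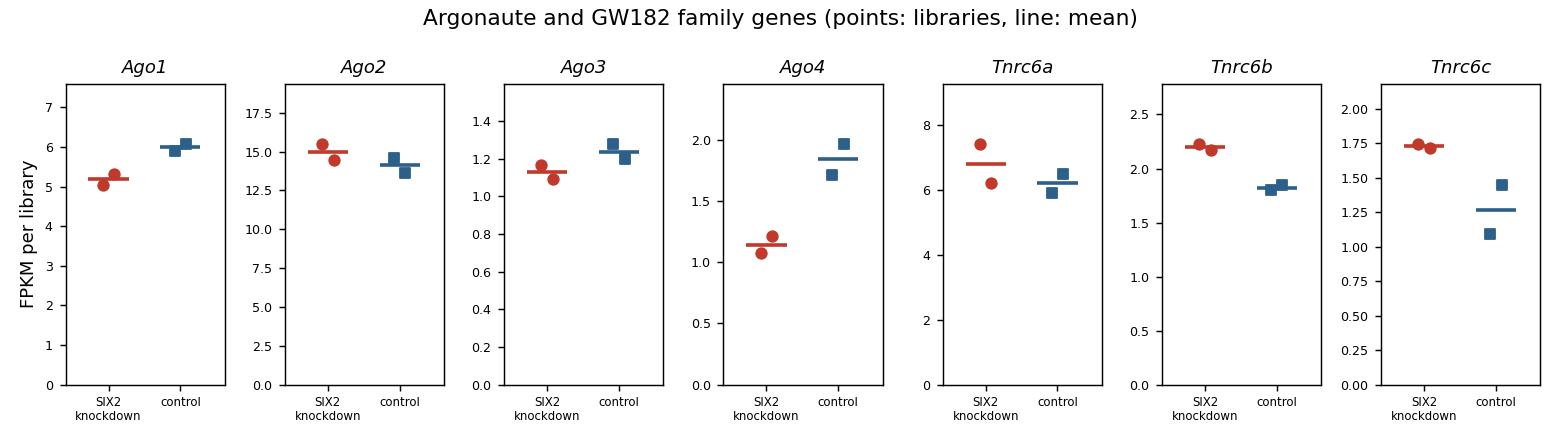
FPKM of the 4 Argonaute and 3 GW182 genes in each library, each panel with its own axis from 0, SIX2 knockdown on the left and control on the right, points for libraries and lines for means. Ago1, Ago3 and Ago4 are lower in both knockdown libraries, Tnrc6b and Tnrc6c are higher in both, and Ago2 and Tnrc6a overlap between groups.

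The promoters of Ago4 and Tarbp2, the genes of the 30 with the lowest unadjusted p, are shown for their base make-up. Each runs from 250 bases before to 50 after the start (RefSeq, GRCm38.p6). Capitals mark the GC box GGGCGG and the CCAAT box on either strand. Boxes were marked and counted without overlap, so a box that shares bases with a marked one is left out. The Ago4 promoter is at chr4:126533409-126533708 on the minus strand.
Ago4 promoter: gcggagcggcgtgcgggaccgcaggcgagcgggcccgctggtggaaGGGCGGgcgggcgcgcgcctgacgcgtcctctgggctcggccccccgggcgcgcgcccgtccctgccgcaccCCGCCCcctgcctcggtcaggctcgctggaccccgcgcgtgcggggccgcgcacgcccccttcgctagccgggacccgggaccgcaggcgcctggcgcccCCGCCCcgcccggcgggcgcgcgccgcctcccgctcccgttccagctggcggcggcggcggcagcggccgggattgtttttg
It holds 3 marked GC boxes, with more that share bases with marked ones. It has no CCAAT box, and 83.3% of its bases are G or C. The Tarbp2 promoter is at chr15:102517942-102518241 on the plus strand.
Tarbp2 promoter: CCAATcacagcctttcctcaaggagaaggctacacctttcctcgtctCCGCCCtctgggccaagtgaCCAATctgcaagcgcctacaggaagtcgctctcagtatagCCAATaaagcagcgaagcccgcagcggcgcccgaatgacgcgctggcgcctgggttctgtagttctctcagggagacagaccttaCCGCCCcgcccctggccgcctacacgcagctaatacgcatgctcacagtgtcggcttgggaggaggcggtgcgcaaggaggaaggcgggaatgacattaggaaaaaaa
It holds 3 CCAAT boxes and 2 marked GC boxes, with another GC box that shares bases with a marked one. Of its bases, 59.0% are G or C. Over all 32851 promoters of this length, 35.7% hold a GC box and 37.4% a CCAAT box. Of the 30 genes, 26 had a promoter entry, 32 promoters in all, of which 18 (56.3%) hold a GC box and 16 (50.0%) a CCAAT box. The MEF3 site TCAGGTTTC, a DNA word bound by the protein family of SIX2, was in none of the 32 and in 141 (0.429%) of all promoters, on either strand.

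The enzymes of deadenylation and decapping act next on a silenced message. Cnot1, the scaffold of the CCR4-NOT deadenylase, had 17.0 and 16.7 FPKM in knockdown cells, against 15.2 and 15.8 FPKM in control cells. Ddx6, the helicase that links CCR4-NOT to decapping, had 17.8 and 17.8 FPKM in knockdown cells, against 18.7 and 18.9 FPKM in control cells. Neither pair of groups overlapped (47.4% of all genes tested did not), though the differences were small. The log2 fold changes were 0.16 ± 0.07 for Cnot1 (SE, adjusted p = 0.345) and -0.05 ± 0.07 for Ddx6 (SE, adjusted p = 0.822 by edgeR). Edc4, a scaffold of decapping, had 15.9 and 14.7 FPKM in knockdown cells, against 13.0 and 14.5 FPKM in control cells. Dcp2, the decapping enzyme, had 9.08 and 9.11 FPKM in knockdown cells and 9.04 and 8.95 FPKM in control cells. For Dcp2 the 95% interval, 0.913-fold to 1.17-fold, bounded the difference.

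Among the RNA decay enzymes, Xrn1, which degrades decapped RNA in the cytoplasm, had 1.70 and 1.60 FPKM in knockdown cells and 1.73 and 1.56 FPKM in control cells. Xrn2, its nuclear relative, had 51.0 and 52.9 FPKM in knockdown cells, against 50.8 and 48.3 FPKM in control cells. Zc3h12a encodes Regnase-1, an RNase of activated macrophages that cuts inflammatory mRNAs and microRNA precursors. It had 25.4 and 23.2 FPKM in knockdown cells and 25.3 and 24.7 FPKM in control cells, with a 95% interval from 0.865-fold to 1.15-fold. Libraries of the groups overlapped for Xrn1 and Zc3h12a and did not for Xrn2, with a log2 fold change of 0.10 ± 0.07 (SE, adjusted p = 0.599 by edgeR).

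The 7 RNA-binding proteins tied to microRNA processing or to vesicle sorting included the 3 genes of the 30 with the highest FPKM. None of the 7 had an unadjusted p under 0.05 (14.2% of all genes did). Hnrnpa2b1, which binds GGAG-bearing microRNAs, had 194 and 202 FPKM in knockdown cells and 162 and 201 FPKM in control cells. The knockdown libraries lay at or just beside the higher control library, and the log2 fold change was 0.02 without control replicate 1 and 0.32 without control replicate 2. Syncrip, which binds the GGCU motif shown above in miR-3470b, had 17.4 and 19.8 FPKM in knockdown cells and 19.8 and 19.6 FPKM in control cells, a log2 fold change of -0.05 ± 0.08 (SE, adjusted p = 0.869 by edgeR). Ybx1, a cold-shock protein also reported in vesicle sorting, had 389 and 448 FPKM in knockdown cells, against 471 and 487 FPKM in control cells. It was lower in both knockdown libraries, but those libraries differed by more than the gap to control (log2 fold change -0.16 ± 0.09, SE, adjusted p = 0.474 by edgeR). The value was -0.062 without knockdown replicate 1 and -0.26 without knockdown replicate 2. Hnrnpa1, which remodels the hairpin of certain primary microRNAs, had 372 and 387 FPKM in knockdown cells, against 363 and 358 FPKM in control cells. Hnrnpk had 75.2 and 67.7 FPKM in knockdown cells and 64.1 and 73.3 FPKM in control cells. Hnrnpu had 73.7 and 66.8 FPKM in knockdown cells and 68.3 and 64.6 FPKM in control cells. Both are abundant nuclear RNA-binding proteins, and their groups overlapped. Elavl1 (HuR), which stabilises AU-rich messages and can oppose microRNA binding there, had 11.7 and 11.3 FPKM in knockdown cells, against 11.2 and 11.0 FPKM in control cells.

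**Figure D4:**
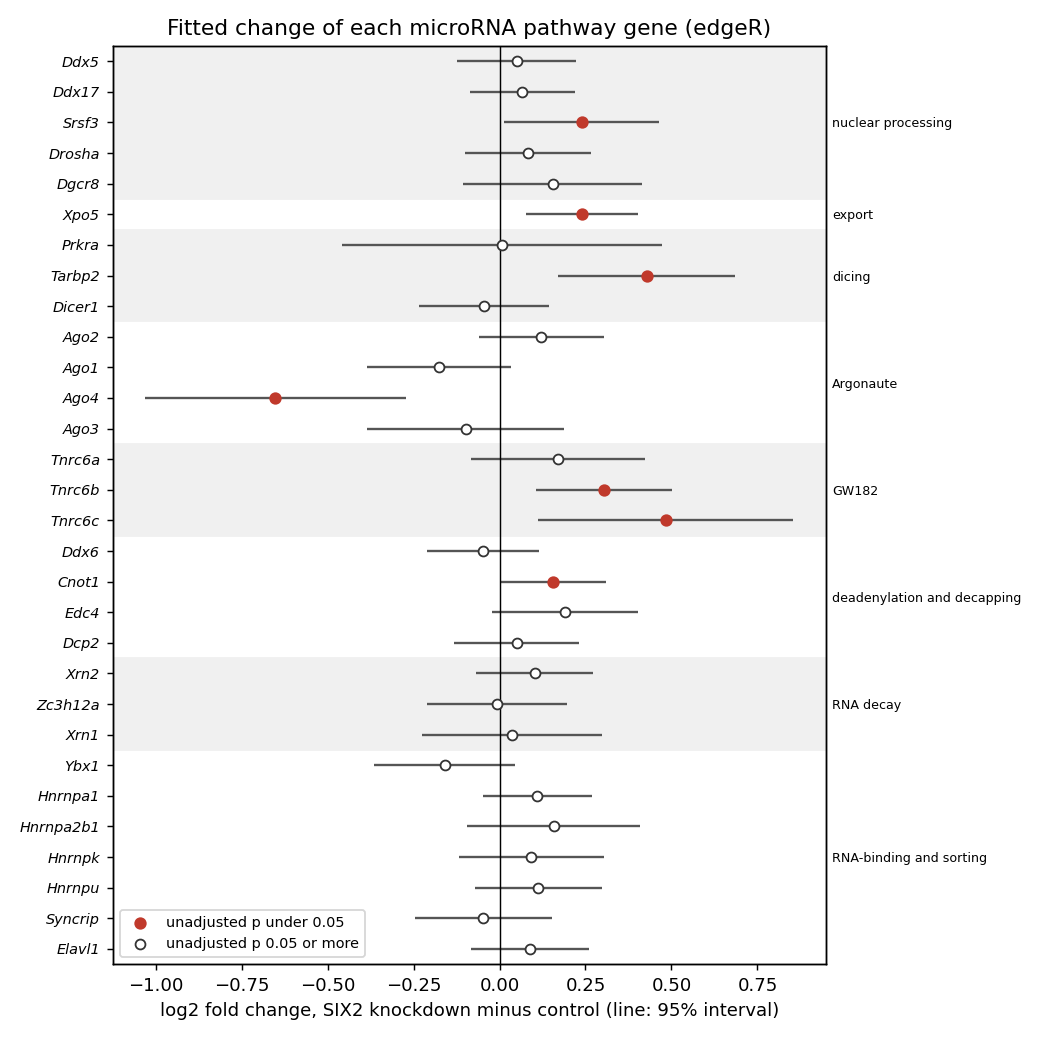
Fitted log2 fold change (SIX2 knockdown minus control) of the 30 genes with 95% intervals, grouped by role, filled red where the unadjusted p was under 0.05. Intervals of 23 genes include 0, and the only filled point below 0 is Ago4.

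Further genes of the pathway were read from 7 lists of 154 genes chosen for their known roles, of which 148 were tested and 2 passed, 1 in each direction (the share over all genes is 0.953%). Btg1, an antiproliferative protein that binds the CCR4-NOT deadenylase, fell to 8.30 and 7.86 FPKM in knockdown cells, against 12.2 and 12.2 FPKM in control cells. Zfp36l2, which brings deadenylase to AU-rich messages, rose to 41.5 and 36.7 FPKM in knockdown cells, against 26.8 and 27.1 FPKM in control cells. The log2 fold changes were -0.56 ± 0.08 for Btg1 (SE, adjusted p = 0.0426) and 0.57 ± 0.08 for Zfp36l2 (SE, adjusted p = 0.0428 by edgeR), with every knockdown library on 1 side of both controls. Both calls were lost when any 1 library was left out (adjusted p from 0.0968 to 0.217 for Btg1 and from 0.0882 to 0.209 for Zfp36l2), without edgeR's robust option (0.0936 and 0.105), in limma-voom (0.0664 and 0.0708) and in limma on log2(FPKM + 1) (0.169 and 0.190). Zfp36l2 also missed the threshold with library totals alone (0.0522). Btg1 was 1 of 18 deadenylation genes, of which 2 lay higher and 2 lower in knockdown cells with an unadjusted p under 0.05. Zfp36l2 was 1 of 15 tested genes of sequence-directed mRNA decay, with 5 higher and 1 lower at that p. All genes gave 7.52% and 6.7%, and the 8663 better expressed genes 11.2% and 7.08%. By DESeq2, 2 passed in each list (4.29% of all genes). The lower decay gene, Zfp36l1, had a log2 fold change of -0.39 ± 0.10 (SE, adjusted p = 0.151 by edgeR, 0.0440 by DESeq2). It was picked out here after its values were seen.

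In the other 5 lists none passed by edgeR. Of 24 nuclear processing partners, 4 lay higher and 1 lower in knockdown cells with an unadjusted p under 0.05. All genes gave 7.52% and 6.7%, and the 8663 better expressed genes 11.2% and 7.08%. By DESeq2, 2 of the 24 passed (4.29% of all genes). Mbnl1, a splicing regulator, had 1.84 and 1.27 FPKM in knockdown cells, against 2.78 and 2.77 FPKM in control cells (adjusted p = 0.139 by edgeR). Ran, which powers exportin 5, had 394 and 410 FPKM in knockdown cells and 403 and 407 FPKM in control cells, and Erh, a DGCR8 partner, had 144 and 158 FPKM in knockdown cells and 164 and 162 FPKM in control cells. Of 25 tested genes of loading, turnover and tailing of small RNA, 1 was higher and 1 lower at that unadjusted p (4.0% each). The shares were 7.52% and 6.7% of all genes, and 11.2% and 7.08% of the 8663 better expressed genes. By DESeq2, 1 of the 25 passed (4.29% of all genes). The chaperone Hsp90ab1, which helps to load Argonautes, had 1056 and 1084 FPKM in knockdown cells, against 934 and 895 FPKM in control cells (adjusted p = 0.181 by edgeR). Hspa8, another chaperone of that list, overlapped widely, with 516 and 415 FPKM in knockdown cells and 550 and 404 FPKM in control cells.

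Of 19 decapping and P-body genes, 6 lay higher and 1 lower in knockdown cells with an unadjusted p under 0.05. Over all genes 7.52% and 6.7% did, and over the 8663 better expressed genes 11.2% and 7.08% did. By DESeq2, 3 of the 19 passed (4.29% of all genes). Lsm7, a subunit of the LSM ring that binds shortened tails, had 47.1 and 37.0 FPKM in knockdown cells, against 27.1 and 29.5 FPKM in control cells (adjusted p = 0.102 by edgeR). Lsm5 had 50.6 and 48.6 FPKM in knockdown cells, against 39.2 and 44.9 FPKM in control cells. Lsm4, of the same ring, lay the other way, with 140 and 134 FPKM in knockdown cells, against 158 and 150 FPKM in control cells. Of 26 tested hnRNP and sorting partners, 3 were higher (11.5%) and 2 lower (7.69%) at that p, and 2 passed by DESeq2 (4.29% of all genes). Those shares lie near the 11.2% and 7.08% of genes with a mean CPM at least that of the lowest of the 30. Ybx3, a relative of Ybx1, had 322 and 311 FPKM in knockdown cells, against 251 and 243 FPKM in control cells (log2 fold change 0.39 ± 0.07, SE, adjusted p = 0.0614 by edgeR). Ybx1 and Ybx3 thus lay on opposite sides of control, while Hnrnpab had 494 and 487 FPKM in knockdown cells and 462 and 495 FPKM in control cells.

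Of 21 transcripts that host microRNAs, 3 lay higher and 1 lower in knockdown cells with an unadjusted p under 0.05. Over all genes 7.52% and 6.7% did, and over the 8663 better expressed genes 11.2% and 7.08% did. None of the 21 passed by edgeR (0.953% of all genes) or DESeq2 (4.29%). Ctdsp1, host of miR-26b, had 27.8 and 27.5 FPKM in knockdown cells, against 24.7 and 23.6 FPKM in control cells (adjusted p = 0.255 by edgeR). Copz1, host of miR-148b, had 47.3 and 46.1 FPKM in knockdown cells, against 54.8 and 54.7 FPKM in control cells. Rcl1, host of miR-101b, had 54.9 and 58.2 FPKM in knockdown cells and 55.5 and 58.9 FPKM in control cells. The widest fitted difference of the list was in Mir155hg, the host of the LPS-induced miR-155, a gene picked out here after its values were seen. It was scarce, with 68 and 58 counts in knockdown cells, against 12 and 27 counts in control cells (log2 fold change 1.63 ± 0.77, SE, adjusted p = 0.410 by edgeR), and control replicate 1 lay at the floor of 12 counts.

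**Figure D5:**
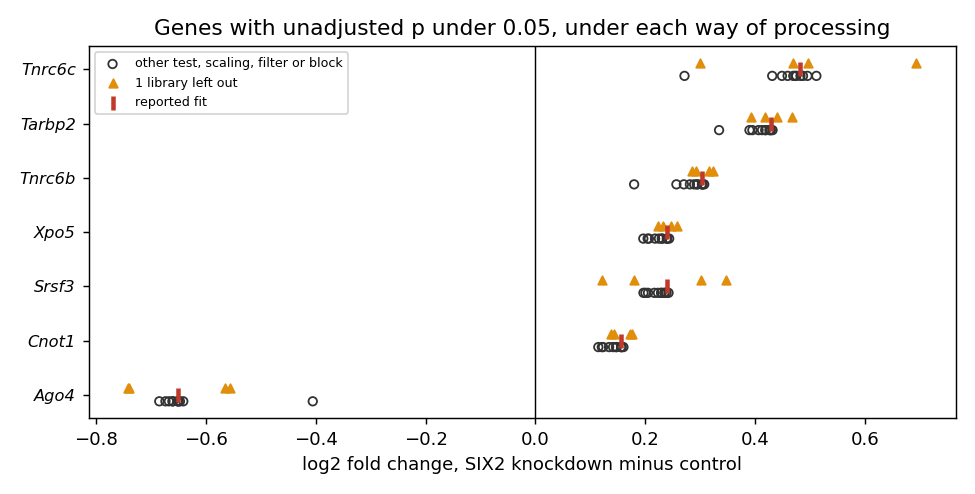
Log2 fold change (SIX2 knockdown minus control) of the 7 genes with an unadjusted p under 0.05, for the reported fit (red bar), 11 other tests, scalings, filters or the block (open circles) and 4 fits with 1 library left out (triangles). Every value of a gene lies on 1 side of 0, with the widest spread in Tnrc6c, from 0.27 to 0.69.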

How the data were processed

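Per the labels' protocols, poly(A) RNA was made into strand-marked libraries and sequenced in pairs. The submitters' processing notes name Bowtie 0.12.2 and build mm8, while 21093 of 24422 genes (86.4%) have the coordinates of GENCODE M21 on GRCm38, the build used here. The deposited counts are estimated counts per gene, unnormalized and already whole. The counting program and its strand setting are not stated in the labels. Between 42.1% and 47.2% of values from 1 to 20 are multiples of 4, so 3 fragments were taken as 12 counts. The deposited FPKM, named so per the file headers, departed from a fixed scaling of the counts by at most 0.223% for the 30 genes. The 12 columns that match no labelled sample were not used.

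Counts were tested with edgeR 4.0.16 in R 4.3.3 (filterByExpr, TMM, robust quasi-likelihood, two-sided, no covariate), with DESeq2 1.42.0, limma 3.58.1 and other settings as alternatives. With 1 library left out, the lone library was assumed to vary like the other group. Fold changes are knockdown over control. The 95% intervals of fold changes come from the edgeR fit and rest on the spread between these libraries, as its p-values do. The bound of 12 counts on a row without counts covers counting error only. Of the 30 genes, 14 overlap no other gene model. All 30 were named. From each list, changed genes were named, or else the 2 highest in FPKM and the 1 with the lowest p. Members and lists were chosen with earlier results of these data known.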

Additional observations from a re-analysis of the deposited data

How the results depend on the processing

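The number of genes changed, 150 as reported, was 681 by DESeq2 (670 of them among genes that edgeR tested), 297 with no filter on low counts, 65 by limma-voom, 7 without the robust option, 7 at an adjusted p of 0.01, 3 with limma on log2(FPKM + 1) and 3 on log2(FPKM + 0.1), and 41 to 112 with 1 library left out. With the replicate number of the titles as a block in edgeR it was 0, with 2055 genes at an unadjusted p of 0.05. The titles' numbers are not stated to mark a shared culture, and the replicate differences of the groups correlated at 0.0486 over genes. Of the 30 microRNA pathway genes 0 were changed in every setting but DESeq2, which called 1, Ago4; in edgeR with the replicate block 6 had an unadjusted p under 0.05. The genes changed over the 7 lists, 2 as reported, were 12 by DESeq2, 4 with no filter, 1 with library totals alone and 0 to 2 with 1 library left out. They were 0 by limma-voom (33 at an unadjusted p of 0.05), with limma on either FPKM scale (23 and 22), without the robust option (32), with the replicate block (33) and at an adjusted p of 0.01. Of the 30 genes, 25 kept the sign of their log2 fold change in all 15 other fits. Prkra turned to -0.0025 with RLE scaling, -0.027 with library totals, -0.0020 by DESeq2, -0.026 by limma-voom, -0.014 with the stricter filter, -0.0088 with counts divided by 4, -0.037 and -0.046 on the FPKM scales, -0.014 with the replicate block and between -0.27 and 0.24 with 1 library left out. With 1 library left out, Zc3h12a ranged from -0.073 to 0.058, Xrn1 from -0.038 to 0.12, Ddx5 from -0.012 to 0.12 and Syncrip from -0.14 to 0.044. Of the named list genes that edgeR did not call, Hspa8 turned to 0.0074 by limma-voom, 0.0016 with no filter, 0.0083 with the replicate block and ranged from -0.21 to 0.25. Ran turned to -0.0084 with library totals and -0.010 and -0.010 on the FPKM scales, with a range of -0.0028 to 0.053 when 1 library was left out. Rcl1 turned to -0.015 with library totals, -0.016 and -0.017 on the FPKM scales, -0.0040 with the stricter filter, with a range of -0.024 to 0.060 when 1 library was left out. The causes were not tested.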
